A study of Mus musculus with 12 samples.

Results

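The genes described here mark the identity of epithelial, thymic epithelial and mesenchymal cells. They were listed by name, and each was represented by the probe set with its highest mean over the 12 arrays. Of 39 genes listed, 38 were on the array, among 12393 genes with a symbol of their own there: 13 epithelial, 10 thymic epithelial and 15 mesenchymal genes. Psmb11, which encodes the proteasome subunit specific to cortical thymic epithelium, was the 1 gene without a probe set, so it has no value here. The cells were of the ET line, labelled as cortical thymic epithelium of the mouse fetus, and their RNA was read on 12 Affymetrix arrays. For 2, 4 or 6 h, cells near confluence received either 5 nM of TCDD, a dioxin and potent ligand of the aryl hydrocarbon receptor (AhR), or only its solvent, 1,4-dioxane (0.05% by volume). Each of these 6 groups held 2 arrays, described as biological duplicates without saying which step was repeated, so the p-values measure only the spread between these arrays, which may be technical. All arrays came from this 1 cultured line, and the labels do not say whether it is a clone.

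Epithelial cells hold together through E-cadherin, claudins and desmosomes and carry a skeleton of keratins. In the thymus, epithelium arises from the pharyngeal pouches under Hoxa3, Pax1, Pax9, Eya1 and Tbx1, and then depends on the transcription factor Foxn1; cortical cells carry the keratins 8 and 18 and present peptides to developing T cells, while medullary cells carry the keratins 5 and 14 and, in part, Aire. Mesenchymal cells carry vimentin, N-cadherin and receptors for platelet-derived growth factor, and the factors Snai1, Snai2, Twist1, Zeb1 and Zeb2 can repress epithelial genes such as E-cadherin.

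Levels are log2 values. A percentile is the rank of a gene's mean over the solvent arrays among all 22626 probe sets, as a percentage. Tied probe sets share their average rank. Probe sets bind their targets with different strength, so levels and percentiles of different genes compare only roughly. Probe sets with a mean over all arrays of at least 3.98, the 30th percentile, were tested; 25 of the 38 genes were, namely 6 of 13 epithelial, 4 of 10 thymic epithelial and 15 of 15 mesenchymal genes. In these bulk samples, fewer cells of a type and less RNA per cell cannot be told apart.

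Clustering split the arrays into a larger set of 7 (4 solvent, 3 TCDD), which was the biggest of 4 clusters, and a smaller set of the other 5 (2 solvent, 3 TCDD), neither bound to a treatment or a time. To the smaller set belonged array 1 of TCDD at 4 h and, for both treatments, array 2 at 2 h and at 6 h. For Cd248, Snai1, Snai2, Twist1, Zeb1, Zeb2, Pdgfrb and Foxn1, values with the set as a block are given too. A figure shows the average change with this block for all tested genes. Labels also contradicted themselves: the treatment field of the second 4 h TCDD array (1 array) named the solvent, and the descriptions of the 2 solvent arrays at 6 h gave 4 h; titles set the groups. Cyp1a1, the classical AhR target, read 9.3 to 11.1 on the arrays titled TCDD, 10.2 on the array in doubt, and 4.0 to 5.5 on the solvent arrays.

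In solvent, the mesenchymal genes stood high and the defining epithelial and thymic epithelial genes stood low. The median percentile was 81.8 for the 15 mesenchymal genes (79.4 to 86.3 on single solvent arrays), 31.0 for the 13 epithelial genes (28.9 to 32.6) and 29.9 for the 10 thymic epithelial genes (26.7 to 32.8). As a gauge of genes that a thymic stromal line should lack, 15 markers of thymocytes and other blood cells had a median percentile of 27.8, and 7 endothelial markers one of 20.2. The highest of these markers, Cd3e, stood at 56.3. Above it lay 13 of 15 mesenchymal, 2 of 13 epithelial and 1 of 10 thymic epithelial genes. By the definition of the percentile, about 56.3% of all probe sets stood at or below it. Of the second lists described further below, 25 of 28 mesenchymal, 5 of 29 epithelial and 8 of 20 thymic epithelial genes lay above it. The listed defining markers of the labelled cell type thus stood mostly within the range of the blood cell markers, which is a wide one.

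**Figure D1:**
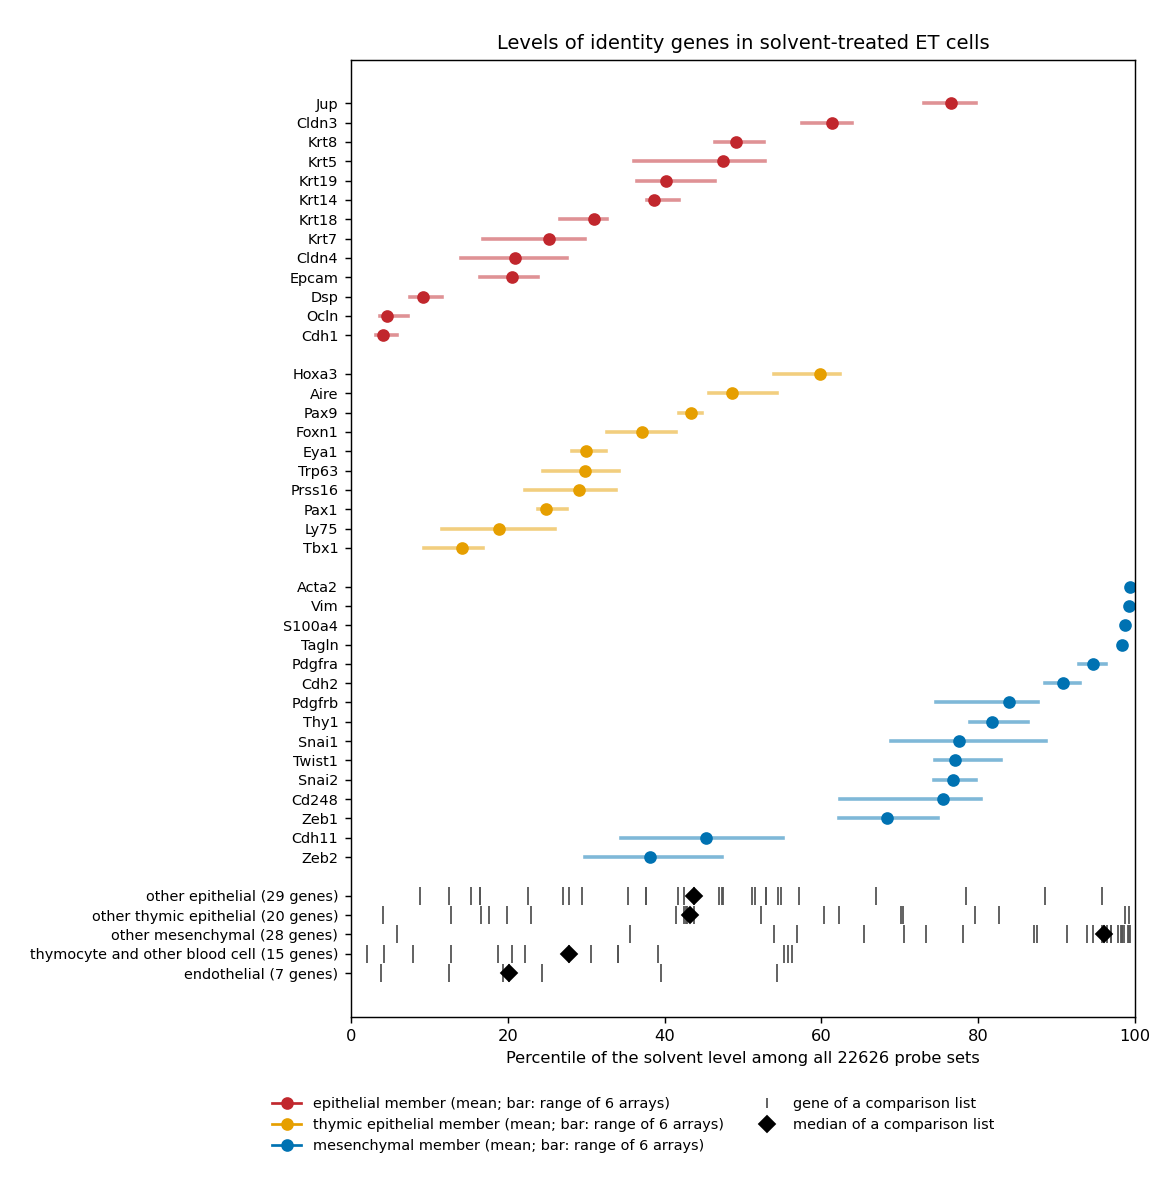
Percentile of the level in solvent (horizontal axis, 0 to 100, among all probe sets) for each of the 38 genes, with the mean as a dot and the range over the 6 solvent arrays as a bar; ticks and diamonds below give the genes and medians of 5 comparison lists. Mesenchymal genes run from 38.1 to 99.4, epithelial genes from 4.03 to 76.6 and thymic epithelial genes from 14.1 to 59.8.

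Cdh1, which encodes E-cadherin, was among the lowest probe sets of the array. It read 2.8, 2.8, 2.9, 2.9, 2.7 and 2.8 on the solvent arrays in order of time and 2.7, 2.8, 2.9, 2.8, 2.8 and 2.8 on the TCDD arrays (4.03rd percentile in solvent). Ocln, the tight junction protein occludin, and Dsp, the desmosomal linker desmoplakin, were also low, at percentiles 4.59 and 9.23. All 3 probe sets of Dsp lay between 0.977 and 9.23. Epcam, the epithelial cell adhesion molecule by which thymic epithelium is usually sorted, read 3.5, 3.6, 3.4, 3.5, 3.6 and 3.7 in solvent and 3.4, 3.4, 4.1, 3.4, 3.5 and 3.5 with TCDD (percentile 20.6). Its 1 reading above 4 came from the first 4 h TCDD array. Cldn4, a tight junction claudin, had percentile 20.9.

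The keratins, the intermediate filaments of epithelium, stood in the lower and middle part of the range. Krt18 and Krt7, of simple epithelium, had percentiles 31.0 and 25.3 and lay below the test filter. Krt18 ran from 3.8 over a median of 4.05 to 4.1 in solvent and from 3.7 over 3.9 to 4.1 with TCDD. Krt8, the partner of Krt18, read 5.0, 4.9, 5.1, 5.0, 4.9 and 5.3 in solvent and 5.1, 5.3, 5.1, 5.0, 4.9 and 4.9 with TCDD (percentile 49.1), but its other probe sets stood at 30.2 and 32.9. Krt14, of basal and medullary epithelium, ran from 4.3 over a median of 4.4 to 4.6 in solvent and from 4.1 over 4.25 to 4.6 with TCDD. Its percentile was 38.6, with 24.6 and 36.1 by its other probe sets. Krt5, its partner, had percentile 47.5, and Krt19 40.2. None of these 6 keratins exceeded the 50th percentile.

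Above the middle stood Jup, at percentile 76.6, and Cldn3, at 61.3. Jup encodes plakoglobin, which links cadherins to the skeleton both in desmosomes and in the adherens junctions of other cells. It read 7.2, 7.3, 7.2, 7.1, 6.9 and 6.8 in solvent and 7.0, 7.2, 7.0, 6.7, 6.8 and 6.6 with TCDD. At 2 h and 6 h the higher TCDD array equalled the lower solvent array, and at 4 h both TCDD arrays lay lower. Cldn3, a claudin, read 6.0, 6.1, 6.0, 5.8, 5.7 and 6.0 in solvent and 6.2, 6.0, 6.3, 5.6, 5.9 and 5.8 with TCDD, with overlap over all times. Its percentile rested on 1 of 4 probe sets; the other 3 stood at 38.6, 41.7 and 44.8.

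Of the thymic epithelial genes, Foxn1, the factor on which thymic epithelium depends, read 4.1, 4.6, 4.4, 4.2, 4.2 and 4.5 in solvent and 4.3, 4.3, 4.7, 4.3, 4.1 and 4.6 with TCDD (percentile 37.1). The cortical genes Prss16, a thymus-specific serine protease, and Ly75, the endocytic receptor DEC-205, stood at 29.1 and 18.9. The medullary regulator Aire ran from 4.8 over a median of 4.95 to 5.4 in solvent and from 4.7 over 4.9 to 5.4 with TCDD (percentile 48.6). Trp63, the p63 factor of epithelial progenitors, ran from 3.7 over 3.95 to 4.2 in solvent and from 3.8 over 3.9 to 4.2 with TCDD, at percentile 29.8 and lower by its other probe sets (9.95 and 19.2). The ranges of the treatments overlapped for Foxn1, Aire and Trp63.

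The pouch regulators stood apart from each other. Hoxa3 was the highest thymic epithelial gene, at 59.8 by one probe set and 51.0 by the other; it read 6.0, 5.4, 5.9, 5.8, 6.0 and 5.9 in solvent and 5.8, 4.6, 5.6, 5.7, 5.9 and 5.7 with TCDD. Its lowest value, 4.6, came from the second 2 h TCDD array. Pax9 had percentile 43.4 and 4.59 by its other probe set. It ran from 4.6 to 4.8 in solvent and from 4.5 to 5.0 with TCDD. Eya1, Pax1 and Tbx1 stood at 30, 24.9 and 14.1, below the filter. Hoxa3 is also known from other tissues of the body axis.

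**Figure D2:**
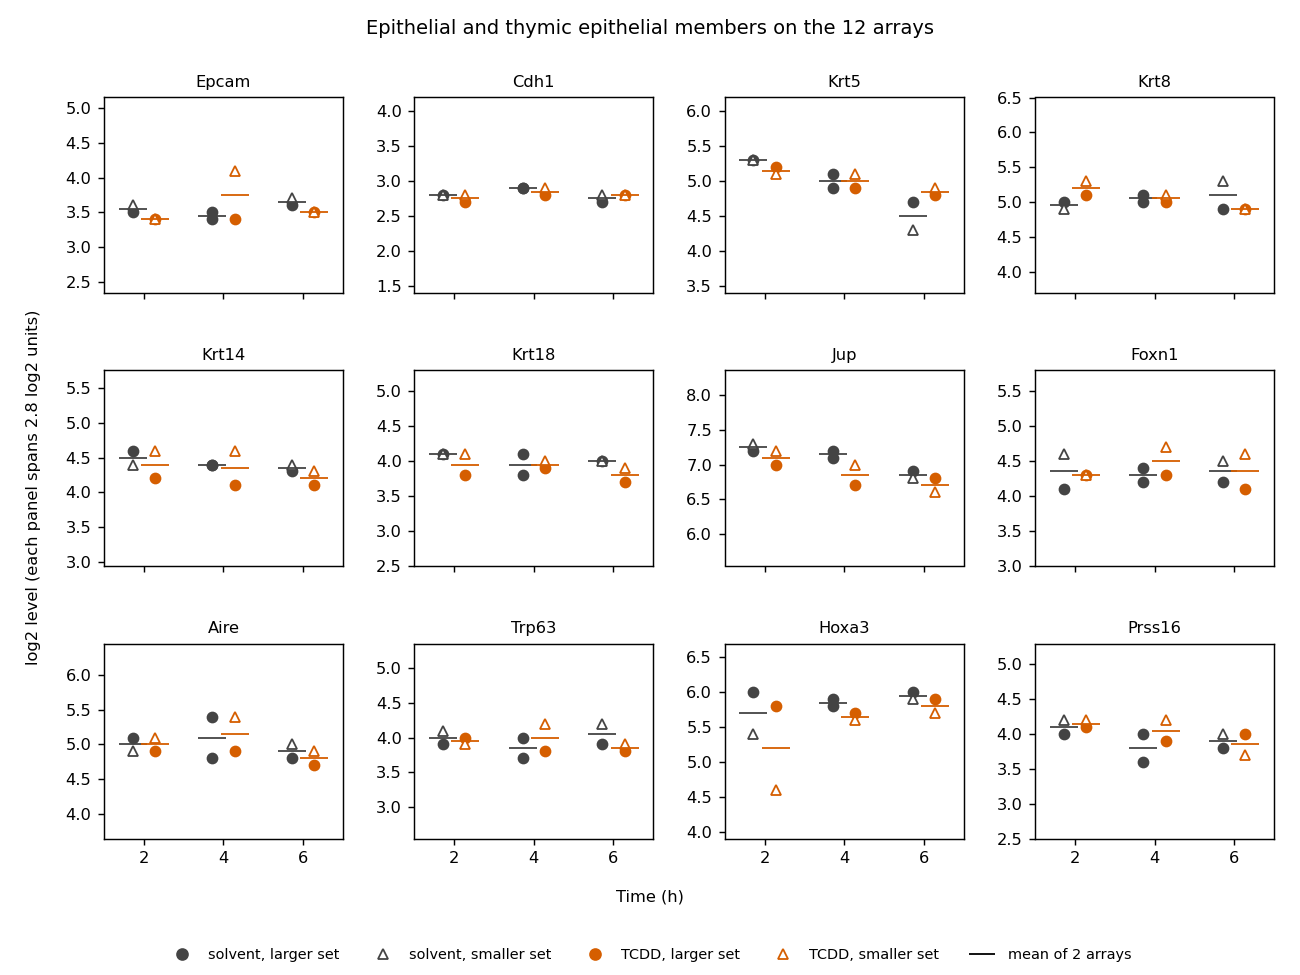
log2 level (vertical axis) of 12 epithelial and thymic epithelial genes against time in h, with 1 point per array, grey for solvent and orange for TCDD, filled circles for the larger and open triangles for the smaller array set, and dashes for the mean of 2 arrays. Cdh1 stays between 2.7 and 2.9, and Krt5 in solvent lies at 5.3 on both 2 h arrays and at 4.7 and 4.3 on the 6 h arrays.

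The mesenchymal structural genes were among the highest probe sets of the array. Acta2, smooth muscle actin, read 12.6, 12.6, 12.6, 12.6, 12.8 and 12.8 in solvent and 12.6, 12.7, 12.5, 12.6, 12.5 and 12.7 with TCDD (percentile 99.4). This probe set is of a kind whose probes may also bind related transcripts, and the other of Acta2 stood at 28.3. The probe sets used for Jup, Hoxa3 and Krt14 are of such kinds too. Vim, which encodes vimentin, read 12.4, 12.5, 12.1, 12.1, 12.3 and 12.3 in solvent and 12.3, 12.4, 12.4, 12.2, 12.3 and 12.1 with TCDD. All 3 of its probe sets lay between 98.9 and 99.3. S100a4, the calcium-binding protein known as fibroblast-specific protein, and Tagln, the actin-binding protein transgelin, stood at 98.8 and 98.3. S100a4 read 11.7, 11.3, 11.7, 11.7, 11.6 and 11.3 in solvent and 11.5, 11.1, 11.3, 11.6, 11.6 and 10.9 with TCDD, and the treatments overlapped except at 4 h.

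The surface proteins of mesenchyme were also high, with the exception of Cdh11. Pdgfra and Pdgfrb, the receptors for platelet-derived growth factor, had percentiles 94.6 and 84.0. By their other probe sets they stood lower, at 57.5 and 71.6. Pdgfra read 9.1, 9.0, 9.5, 9.4, 9.9 and 9.4 in solvent and 9.8, 8.5, 8.3, 10.0, 10.0 and 9.4 with TCDD. Pdgfrb read 8.0, 7.2, 8.1, 8.2, 8.2 and 6.9 in solvent and 7.9, 6.8, 5.8, 8.0, 8.1 and 6.7 with TCDD. Both receptors were lowest on the first 4 h TCDD array. Cdh2, N-cadherin, stood at 90.8 (83.8 by its other probe set) and Thy1, a surface glycoprotein of fibroblasts and of thymocytes, at 81.8. Cd248, the stromal glycoprotein endosialin, stood at 75.5. Cdh11, a cadherin of mesenchyme and bone, stood at 45.3, within the range of the blood cell markers. Cdh2 ran from 8.3 over a median of 8.65 to 9.1 in solvent and from 7.2 over 8.85 to 9.1 with TCDD, Thy1 from 7.3 over a median of 7.45 to 8 in solvent and from 7.1 over 7.25 to 8 with TCDD. Cdh11 ran from 4.2 over a median of 4.8 to 5.5 in solvent and from 3.8 over 5.1 to 5.8 with TCDD. These ranges overlapped for all 3 genes.

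Of the transcription factors that can repress epithelial genes, 4 stood between percentiles 68.4 and 77.6: Snai1 (77.6), Twist1 (77.1), Snai2 (76.8) and Zeb1 (68.4; 5.66 by its other probe set). Zeb2 stood at 38.1 and ran from 4 over a median of 4.35 to 4.9 in solvent and from 3.6 over 4.55 to 5.5 with TCDD. A second list of 28 mesenchymal genes on the array, mostly of matrix and contractile proteins, had a median percentile of 96.0, led by Sparc, Fn1 and Col1a1. A second list of 29 epithelial genes had 43.8, led by Cd24a, F11r and Pkp2, and one of 20 thymic epithelial genes 43.3, led by Cxcl12, Ctsl and Ltbr. The chemokine Cxcl12 and the protease Ctsl (percentiles 99.3 and 98.7) are made by cortical epithelium, yet also by many fibroblasts.

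The letters before the starts of the genes were searched for CAGGTG, the E-box that Snail and Zeb factors bind, on both strands. RefSeq promoters of build GRCm38.p6 were at hand for 26 of the 39 genes, and the 250 bases before each start were read. The E-box was found in 7 of 11 epithelial genes (63.6%), 2 of 8 thymic epithelial genes (25%) and 1 of 7 mesenchymal genes (14.3%), against 19.4% of all 27025 genes of the table. The 7 were Krt5, Krt7, Krt8, Krt18, Epcam, Cldn4 and Ocln, the thymic epithelial genes were Psmb11 and Aire, and the mesenchymal gene was Snai1 itself. Ocln had different starts, with 2 matches before one and 0 before the other. No promoter was at hand for Cdh1 or Krt19, so E-cadherin was not searched. A match is no proof of binding, and no binding was measured. The windows of 3 epithelial genes and of Snai1 are shown, with the E-box or its reverse complement in capitals: Epcam at chr17:87635729-87635978 on the plus strand, with E-boxes that begin 187 and 19 bases before the start; Krt8 at chr15:102004343-102004592 on the minus strand (111 bases); Krt18 at chr15:102027966-102028215 on the plus strand (214 bases); and Snai1 at chr2:167537945-167538194 on the plus strand (126 bases).
Epcam: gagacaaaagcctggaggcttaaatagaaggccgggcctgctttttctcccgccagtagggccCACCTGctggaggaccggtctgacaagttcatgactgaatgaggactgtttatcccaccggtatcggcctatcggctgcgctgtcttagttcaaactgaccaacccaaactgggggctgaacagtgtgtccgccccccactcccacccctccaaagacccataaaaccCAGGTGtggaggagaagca
Krt8: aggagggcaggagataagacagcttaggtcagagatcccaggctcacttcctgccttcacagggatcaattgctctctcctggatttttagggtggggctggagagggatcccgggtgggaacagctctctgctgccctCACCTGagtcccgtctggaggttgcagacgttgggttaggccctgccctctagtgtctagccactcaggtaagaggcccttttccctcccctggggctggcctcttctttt
Krt18: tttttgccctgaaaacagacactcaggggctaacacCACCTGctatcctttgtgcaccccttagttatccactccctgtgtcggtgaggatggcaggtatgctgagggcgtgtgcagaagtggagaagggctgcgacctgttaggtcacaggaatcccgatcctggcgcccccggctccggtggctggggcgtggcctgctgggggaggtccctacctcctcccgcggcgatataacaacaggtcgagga
Snai1: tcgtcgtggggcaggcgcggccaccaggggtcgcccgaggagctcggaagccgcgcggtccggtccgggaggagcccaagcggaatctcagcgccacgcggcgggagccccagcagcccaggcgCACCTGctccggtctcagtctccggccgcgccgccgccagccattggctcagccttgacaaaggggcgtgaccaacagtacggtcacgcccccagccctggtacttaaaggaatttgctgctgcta

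The core of the AhR response element, GCGTG, was searched in the same windows. It was found in 10 of 26 genes (38.5%), against 30.9% of all genes, a share near the background. The 10 included Krt18 and Snai1 among the windows shown; the other 8 were Krt14, Cldn4, Ocln, Dsp, Ly75, Pax1, Hoxa3 and Zeb2.

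The comparison of TCDD with solvent asked whether AhR activation moved these identity genes within hours. None of the 25 tested genes passed at 2, 4 or 6 h or on the average of the 3 times (limma, adjusted p of at least 1.00, 0.973, 1.00 and 0.78). Over all probe sets 0.0189%, 0.0126%, 0.00631% and 0.0947% passed. An unadjusted p under 0.05 was reached by 1 of 25 genes at 2 h (Snai2, 1.49% of all probe sets), 0 at 4 h (2.17%), 1 at 6 h (Cd248, 2.15%) and 3 on the average (Cd248, Snai2 and Twist1, 3.36%). The median average change was -0.04 for the 6 epithelial, 0.00 for the 4 thymic epithelial and -0.07 for the 15 mesenchymal genes, against 0.00 for all 15844 tested probe sets. Epithelial changes ran from -0.20 (Jup) to 0.07 (Krt5), thymic epithelial changes from -0.28 (Hoxa3) to 0.05 (Foxn1). The value for Hoxa3 was -0.08 without the second 2 h TCDD array, -0.48 without the first, -0.18 without the first 2 h solvent array and -0.05 by its other probe set. Krt14 stood at -0.10 ± 0.12 SE. A gene that did not pass is not shown to be unchanged.

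**Figure D3:**
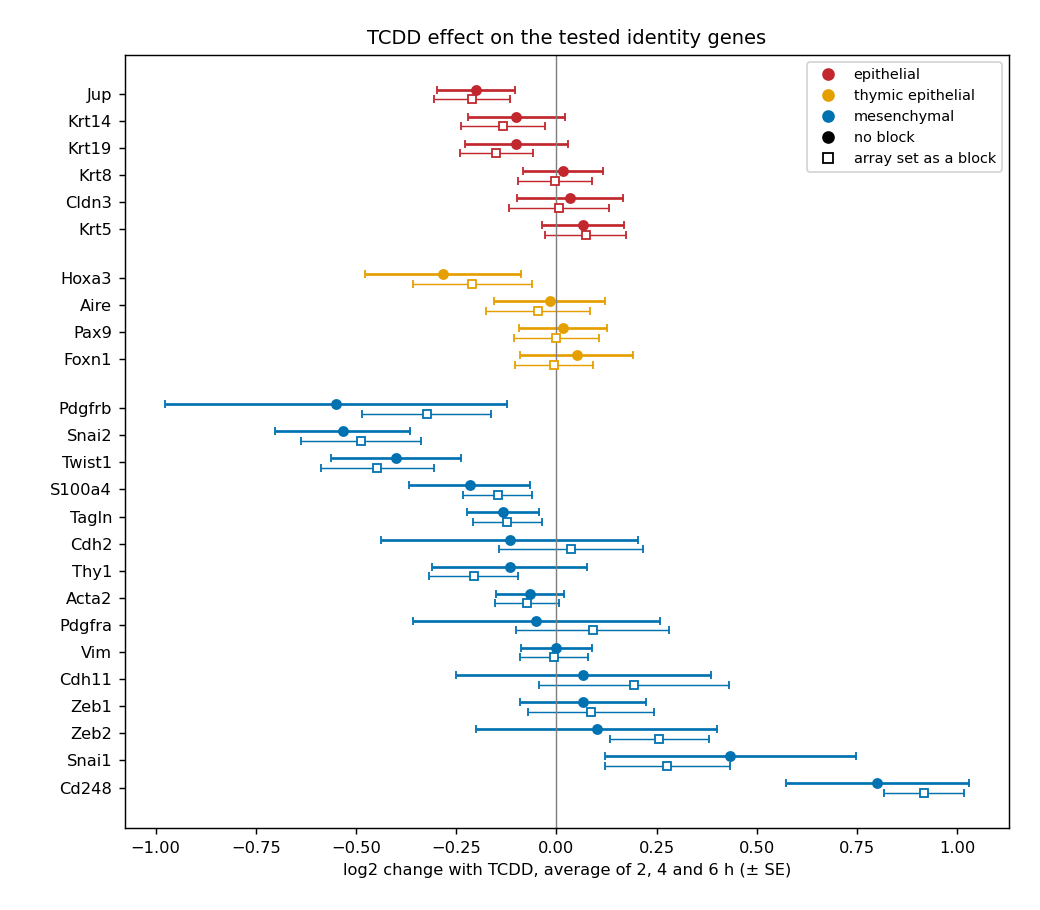
log2 change with TCDD averaged over 2, 4 and 6 h (horizontal axis, with SE) for the 25 tested genes; filled circles come from the fit without a block and open squares from the fit with the array set as a block. Cd248 lies farthest to the right, at 0.80 and 0.92, and Pdgfrb, Snai2 and Twist1 lie lowest without the block.

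Cd248 had the largest average change of the 25. It read 7.4 and 6.8 at 2 h, 7.3 and 7.4 at 4 h and 7.0 and 6.0 at 6 h in solvent, and 8.3 and 7.4, 7.7 and 8.3, and 7.7 and 7.3 with TCDD. Both TCDD arrays lay above the solvent arrays of their time at 4 h and 6 h, and at 2 h the lower TCDD array equalled the higher solvent array. The log2 change was 0.75 at 2 h, 0.65 at 4 h and 1.00 at 6 h, each ± 0.39 SE (n = 2 against 2), and 0.80 ± 0.23 SE on the average, or 1.74-fold (n = 6 against 6; limma adjusted p = 0.78). The 6 h value leaned on the second 6 h solvent array, which at 6.0 was the lowest of the 12 and is 1 of the 2 whose description gives 4 h. It was 0.50 without that array, 1.5 without the first 6 h solvent array, and 0.575 with the solvent arrays of 4 h and 6 h pooled. Taken by array set, TCDD minus solvent was 0.90 (2 h), 0.95 (4 h) and 0.70 (6 h) among larger-set arrays, and 0.60 (2 h) and 1.30 (6 h) among smaller-set arrays. Both sets gave the same direction at each time they cover, but each of these differences rests on only 1 TCDD array. They come from the same arrays as the average by which Cd248 was singled out, so they are no separate support for it.

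With the array set as a block, Cd248 passed on the average (log2 0.92 ± 0.10 SE, limma adjusted p = 0.0065). It was the 1 of 25 tested genes to do so, where 0.29% of all probe sets passed. The sets were made from these same values, so this p can be too small. With the block 0 of the 25 passed at 2, 4 or 6 h (limma; 0.0631%, 0.0442% and 0.0505% of all probe sets), with adjusted p = 0.469, 0.33 and 0.22 for Cd248. An unadjusted p under 0.05 was then reached by 3, 2 and 1 of the 25, against 2.7%, 2.8% and 3.72% of all probe sets. With the block and a single array left out, Cd248 passed in 9 of 12 cases (log2 0.84 to 0.99); it did not pass without the first 2 h TCDD array, the first 4 h solvent array or the second 6 h solvent array (limma adjusted p = 0.0672, 0.0538 and 0.0596). Over the 18 alternatives with 1 choice altered, the block among them, its adjusted p ran from 0.0065 to 1.

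Snai2, the zinc finger factor Slug, lay lower with TCDD at 2 h. At 2 h it read 7.1 and 7.3 in solvent against 6.6 and 6.1 under TCDD, at 4 h 6.9 and 6.9 against 5.9 and 6.9, and at 6 h 7.2 and 7.1 against 6.9 and 6.9. The groups did not overlap at 2 h and 6 h. The log2 change was -0.85 ± 0.29 SE at 2 h (n = 2 against 2; limma adjusted p = 1) and -0.53 ± 0.17 on the average (adjusted p = 0.968). With the array set as a block, the average change of Snai2 was -0.49 ± 0.15 SE (limma adjusted p = 0.523). The 4 h difference of -0.50 without the block came from the first TCDD array alone. Taken by array set, the difference of Snai2 was -0.50 (2 h), 0.00 (4 h) and -0.30 (6 h) in the larger and -1.20 (2 h) and -0.20 (6 h) in the smaller.

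Twist1, the basic helix-loop-helix factor of mesenchyme, read 7.0 and 7.6 at 2 h, 7.1 and 7.1 at 4 h and 7.0 and 6.9 at 6 h in solvent. With TCDD it read 6.3 and 7.2, 6.7 and 6.7, and 6.7 and 6.7. The groups did not overlap at 4 h and 6 h. The average log2 change was -0.40 ± 0.16 SE (n = 6 against 6; limma adjusted p = 1), and within the sets the values were -0.70, -0.40 and -0.30 in the larger and -0.40 and -0.20 in the smaller. Without the first 2 h TCDD array the average was -0.25. The set block, on all arrays, gave an average of -0.45 ± 0.14 SE (limma adjusted p = 0.558).

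Snai1, the Snail factor itself, read 7.1 and 8.3, 6.8 and 6.5, and 6.8 and 7.4 in solvent at 2, 4 and 6 h, and 6.9 and 8.5, 8.3 and 7.4, and 7.0 and 7.4 with TCDD. The groups did not overlap at 4 h, where the log2 change was 1.20 ± 0.54 SE (limma adjusted p = 0.973); at 2 h it was 0.00 and at 6 h 0.10. Its 4 h value held 1 TCDD array of each set against solvent arrays of the larger set alone, and against these the array of the larger set was higher by 0.75. With the array set as a block, the 4 h change of Snai1 was 0.73 ± 0.28 SE (limma adjusted p = 0.999), and its average change went from 0.43 ± 0.31 to 0.28 ± 0.16. Zeb2 stood at 0.10 ± 0.30 SE on the average without the block and at 0.26 ± 0.12 with it (limma adjusted p = 0.998). Zeb1 stood at 0.07 ± 0.16 without and 0.09 ± 0.16 with it. Zeb1 read 6.3 and 6.9, 6.0 and 6.4, and 6.6 and 6.5 in solvent, and 6.5 and 6.3, 5.8 and 6.5, and 7.1 and 6.9 with TCDD.

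Counted over time, 3, 9 and 8 of the 25 genes had groups that did not overlap at 2, 4 and 6 h, where 13.8%, 19.1% and 19.3% of all tested probe sets did. Mesenchymal genes made 1, 7 and 7 of these (of 15). At 4 h, Vim, Cd248 and Snai1 lay higher and Pdgfrb, Tagln, S100a4 and Twist1 lower with TCDD; at 6 h, Cd248 and Zeb1 lay higher and Thy1, Acta2, Tagln, Twist1 and Snai2 lower. Both 4 h solvent arrays were of the larger set, but the first 4 h TCDD array was of the smaller. Within the larger set the 4 h differences were 0.10 (Vim), 0.95 (Cd248), 0.75 (Snai1), -0.15 (Pdgfrb), -0.25 (Tagln), -0.10 (S100a4) and -0.40 (Twist1). In the same direction at 2 of the 3 times lay Cd248 (higher), Tagln, Twist1 and Snai2 (lower), 4 of 25 genes, against 5.24% of all probe sets at 2 or 3 times. Of these, Tagln stood at -0.13 ± 0.09 SE on the average. Of the second lists, 0 of 20 epithelial, 0 of 14 thymic epithelial and 0 of 27 mesenchymal genes tested passed on the average (limma; 0.0947% of all probe sets). An unadjusted p under 0.05 was reached by 3, 1 and 0 of them, against 3.36% of all probe sets. In the second mesenchymal list, groups did not overlap for 2, 6 and 1 of 27 genes at 2, 4 and 6 h. The second epithelial list gave 2, 6 and 4 of 20 genes, and the second thymic epithelial list 3, 1 and 4 of 14. In the same direction at 2 or 3 times lay 2 of 20, 1 of 14 and 0 of 27 mesenchymal genes, against 5.24% of all probe sets.

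**Figure D4:**
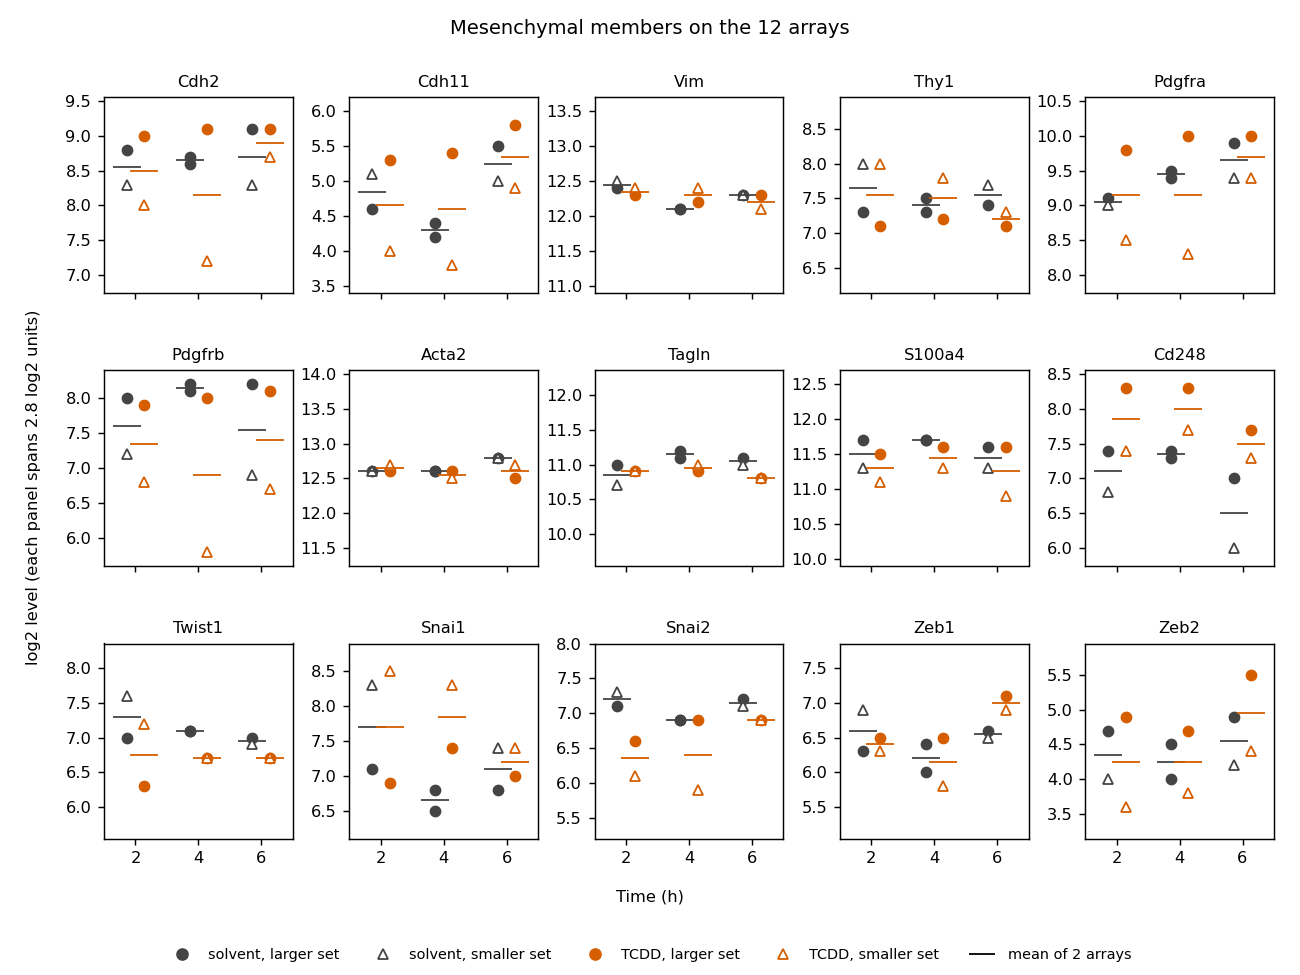
log2 level (vertical axis, 2.8 log2 units in each panel) of the 15 mesenchymal genes against time in h, with 1 point per array, grey for solvent and orange for TCDD, filled circles for the larger and open triangles for the smaller array set, and dashes for the mean of 2 arrays. Triangles lie below circles for Pdgfrb and S100a4, and TCDD points of Cd248 lie above solvent points at 4 h and 6 h.

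Time in solvent alone also left all tested genes short of the threshold. None of the 25 passed at 4 h or at 6 h against 2 h (limma, adjusted p of at least 1.00 and 0.97), and 0% of all probe sets did; an unadjusted p under 0.05 was reached by 1 of 25 genes at 4 h (Vim, 1.81% of all) and by 2 at 6 h (Krt5 and Jup, 2.82% of all). Krt5 read 5.3 and 5.3 at 2 h, 5.1 and 4.9 at 4 h and 4.7 and 4.3 at 6 h in solvent, with no overlap between 2 h and later times. The log2 change at 6 h was -0.80 ± 0.18 SE (n = 2 against 2; limma adjusted p = 0.97). On the TCDD arrays Krt5 read 5.2 and 5.1 at 2 h, 5.1 and 4.9 at 4 h, and 4.8 and 4.9 at 6 h. Jup stood at -0.40 ± 0.17 at 6 h. Groups did not overlap for 8 of the 25 genes at 4 h (25.3% of all probe sets) and for 5 at 6 h (22.9%). A change of the TCDD effect over time passed for 0 of 25 genes (limma F-test, 0% of all probe sets) and reached an unadjusted p under 0.05 for 0 (0.663% of all). Vim stood at -0.35 ± 0.15 at 4 h and -0.15 at 6 h.

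Some of these genes differed between the array sets. The sets were made from all tested probe sets, these among them, so the values are a description. Pdgfrb read 7.9 to 8.2 on the 7 arrays of the larger set and 5.8 to 7.2 on the 5 of the smaller, a difference of means of -1.39. S100a4 read 11.5 to 11.7 against 10.9 to 11.3. These 2 of 25 genes did not overlap between the sets, where 5.12% of all tested probe sets did not.

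Other mesenchymal genes lay lower on average in the smaller set: Cdh2 (8.91 ± 0.21 SD, n = 7, against 8.10 ± 0.56, n = 5), Pdgfra (9.67 against 8.92), Zeb2 (4.74 against 4.00) and Cd248 (7.63 against 7.04). Snai1 lay higher in the smaller set, at 7.98 ± 0.54 against 6.93 ± 0.28, and so did Thy1, at 7.76 against 7.27. A mean difference of at least 0.5 was reached by 6 of 15 mesenchymal, 0 of 6 epithelial and 0 of 4 thymic epithelial genes, and by 8.7% of all tested probe sets. The first 4 h TCDD array alone was the lowest of the 12 for 6 mesenchymal genes (Cdh2, Cdh11, Pdgfra, Pdgfrb, Snai2 and Zeb1), as it was for 18.9% of all tested probe sets. The same array alone was the highest of the 12 for Cldn3, Foxn1 and Pax9, 3 of the 10 tested epithelial and thymic epithelial genes. It alone was also the highest for 8 of 20 other epithelial genes (Ovol2, Elf3, Pkp3, Evpl, St14, Spint1, Spint2 and Cdh3), against 21.9% of all tested probe sets. For 2 others of these 20, Tjp1 and Cd24a, it alone was the lowest. Of 27 other mesenchymal genes, it alone was the lowest for 10 and the highest for 5 (Twist2, Fbln1, Eng, Cnn1 and Des). The smaller set held no solvent array of 4 h, so treatment and set were partly mixed at that time: the change of Pdgfrb at 4 h was -1.25 ± 0.74 SE over both arrays and -0.15 within the larger set. Its average change was -0.55 ± 0.43 SE without and -0.32 ± 0.16 with the set as a block, which did not pass (limma adjusted p = 0.998). Without the first 4 h TCDD array it was -0.18, and without the second -0.92. By the other probe set of Pdgfrb the average change was -0.23 ± 0.14 SE.

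**Figure D5:**
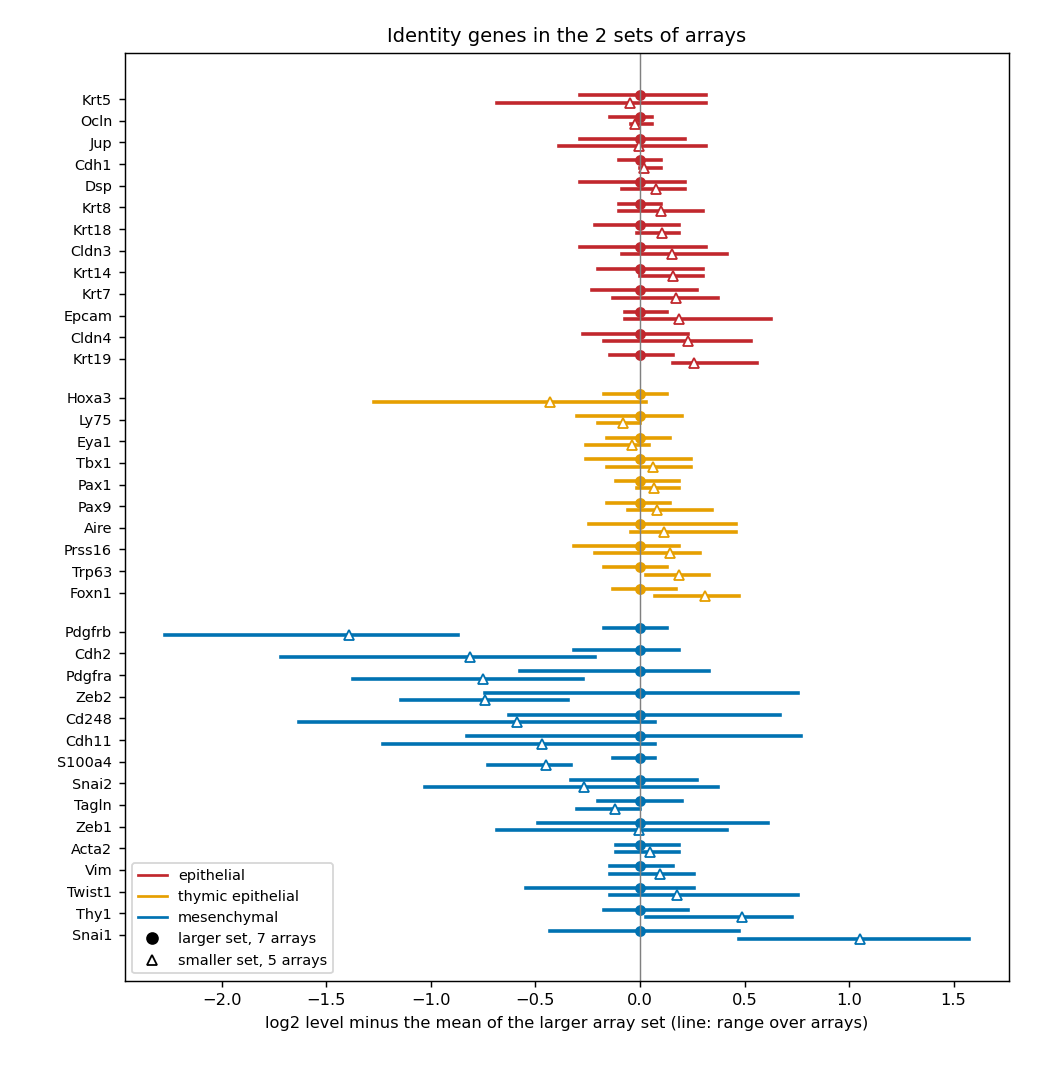
log2 level minus the mean of the larger array set (horizontal axis) for all 38 genes, with the means of the larger set (circles, 7 arrays) and the smaller set (triangles, 5 arrays) and lines for the range over arrays. Pdgfrb lies at -1.39 and Snai1 at 1.05 in the smaller set, while the epithelial genes lie between -0.05 and 0.26.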

How the data were processed

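RNA had been hybridised to 12 Affymetrix arrays, 2 in each of 6 groups. Per the submitters' processing notes the authors used RMA; the deposited values are log2 levels per probe set, with 1 decimal, and the build of the probe annotation is not given in the sources used here. They were used without further normalization, with medians of 5.1 on every array. Symbols came from the platform annotation: of 22626 probe sets other than 64 controls, 20380 had 1 symbol, 691 several and 1555 none. Probe sets with a mean of at least 3.98 (the 30th percentile; 15844) entered a limma model (version 3.58.1, R 4.3.3) of 6 group means (residual degrees of freedom 6), with Benjamini-Hochberg adjustment over all of them and a threshold of 0.05. The procedure was also run on simulated data with independent noise on each array and without array sets. Such data cannot show how well it works on arrays that fall into sets.

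The genes and lists were chosen with earlier results of these data known. Every gene is named with its percentile. Values by array or range are given for the 3 highest genes and the 2 tested genes of largest average change in each subgroup, for genes past the test, and for the defining genes of each type; Jup and Vim over time, Tagln and the genes whose groups did not overlap were named after their values were seen. First-minus-second differences of the solvent and TCDD arrays correlated over probe sets with r = 0.365, 0.159 and 0.705 at 2, 4 and 6 h. The main model did not pair arrays. Pairing by equal replicate number entered only through the replicate blocks, as alternatives, and had the least ground at 4 h. Array sets came from complete-linkage clusters of 1 minus Pearson's r, cut into 4, the largest against the rest. Alternatives were the set block, replicate blocks, a filter at the 50th percentile or none, a variance prior with a trend, other probe sets, the 4 h and 6 h solvent arrays together, other references for percentiles, and leaving out each array. Blocks with each array left out for Cd248 were added after seeing the data.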

Additional observations from a re-analysis of the deposited data

Results flagged for a closer look

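Krt5, the keratin of basal and medullary epithelium, had TCDD arrays on opposite sides of solvent at the first and last time. TCDD minus solvent was -0.15 on the log2 scale at 2 h, with both TCDD arrays below both solvent arrays, and 0.35 at 6 h, with both above. A test of whether the effect of TCDD differed over the 3 times did not pass (limma moderated F-test, adjusted p = 1).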

How the results depend on the processing

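With 2 arrays a group, a gene could miss the threshold for lack of precision. No tested gene passed in any of the 7 comparisons under the 18 or 19 alternatives, except Cd248 on the average with the array set as a block, which made the count 1 in place of 0 (log2 0.92, limma adjusted p = 0.0065). The replicate block changed no call: 0 genes passed, and Cd248 stood at 0.80 (adjusted p = 0.131 paired within time and 0.644 over all times). Over the alternatives, calls among all probe sets ranged from 0 to 10 at 2 h, 1 to 59 at 4 h, 0 to 11 at 6 h and 10 to 46 on the average. Krt14 turned from -0.10 to 0.13 with another probe set. Foxn1 turned from 0.05 to -0.0067 with the set block and lay between -0.033 and 0.13 with single arrays left out. The cause was not tested. The epithelial median percentile moved from 31.0 to 24.6 with 1 probe set per gene as reference, 28.2 on TCDD arrays and 29.2 on the 4 h solvent arrays. The thymic epithelial median moved from 29.9 to 27.0 with the median over probe sets and 23.7 with 1 per gene. The mesenchymal median moved from 81.8 to 77.1, 77.6 and 78.5 with the median over probe sets, the probe set of largest spread and 1 per gene.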
